A study of Mus musculus with 4 samples.

Results

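The 10 small leucine-rich proteoglycan genes *Bgn*, *Dcn*, *Fmod*, *Lum*, *Ogn*, *Omd*, *Aspn*, *Prelp*, *Kera* and *Epyc* were chosen by name from the 23946 genes measured in calvarial bone, and all 10 were found. Total RNA came from the frontal and parietal bones of 21-day-old mice on the C57BL/6J background, either wild-type or carrying 1 inactive allele of *Twist1* (Twist1+/-), with 12 mice per strain. There were 4 libraries, 1 for each genotype and bone, so differences below could not be set against a spread between replicates, and none was tested. Expression was given as FPKM, fragments per length of transcript and per mapped fragments of the library, so levels of different genes can be set side by side. The mutant allele is carried in the germ line and so by every cell of the mouse, and the study describes the parietal bones as holding pericranium and dura mater along with the bone plate. The study's methods mention replicates, whereas 1 set of values per bone and genotype was analysed here, and how that set was made from them is not given in the sources used here.

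*Twist1* encodes a basic helix-loop-helix transcription factor of mesenchymal cells. The frontal libraries had 59.0 FPKM (wild-type) and 30.4 FPKM (Twist1+/-) of it, and the parietal libraries 52.5 FPKM (wild-type) and 50.7 FPKM (Twist1+/-). The targeted gene thus did not separate the parietal libraries, so the Twist1+/- parietal library is known only by its label and is called the library labelled Twist1+/- parietal, or the labelled library for short. All 12 osteoblast markers reached 1 FPKM in at least 1 library of each comparison, and their summed expression was between 8818 and 13450 FPKM in the 4 libraries. Markers of other tissues differed between the libraries too. The 12 skeletal muscle markers summed to 143 FPKM in wild-type frontal, 1612 in Twist1+/- frontal, 4440 in wild-type parietal and 2158 in the labelled library. The 9 meningeal markers summed to 2082, 395, 131 and 497 FPKM in the same order. Without *Ptgds*, the highest of them, the other 8 summed to 108, 68.6, 77.8 and 68.1 FPKM, so the direction between the parietal bones turned. Also in that order, 8 nasal epithelium markers summed to 283, 1408, 21.2 and 1573 FPKM, 8 brain markers to 356, 394, 94.9 and 369 FPKM and 5 osteoclast markers to 2577, 3223, 9063 and 6654 FPKM. Of the 12 osteoblast markers 10 were higher in the labelled library than in wild-type parietal bone, with a median log2 ratio of 0.86, beside 46.9% of 13800 genes. Of 5 osteocyte markers 2 were higher there and 3 lower, with a median log2 ratio of -0.87. Of the 10 proteoglycan genes 4 were higher and 6 lower, as described below. The part of these tissues in the results was not tested. In bulk tissue, fewer cells of a type and less RNA per cell cannot be told apart.

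Small leucine-rich proteoglycans are secreted proteins of connective tissue, built from a curved stack of leucine-rich repeats that binds collagen fibrils. They set the thickness and spacing of fibrils, and several of them bind growth factors of the TGF-β and BMP family. In bone they are part of the osteoid, the unmineralised matrix laid down by osteoblasts, and mice without biglycan have low bone mass. The family is divided into classes by the spacing of 4 cysteines before the repeats and by gene structure. Class I held *Bgn* (biglycan), *Dcn* (decorin) and *Aspn* (asporin), class II held *Fmod* (fibromodulin), *Lum* (lumican), *Omd* (osteomodulin), *Prelp* (a proteoglycan with an arginine-rich and proline-rich end) and *Kera* (keratocan), and class III held *Ogn* (osteoglycin) and *Epyc* (epiphycan).

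The coding sequence of the cysteine cluster is shown for 5 genes, because within classes I and II genes differed in opposite directions between the parietal bones. *Ogn* is shown for class III, where both it and *Epyc* were lower in the labelled library, as the values below show. The sequences were read from the mm9 genome on the coding strand, and capitals mark the codons of the 4 cysteines.
*Bgn*: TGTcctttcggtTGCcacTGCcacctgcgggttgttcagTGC
*Aspn*: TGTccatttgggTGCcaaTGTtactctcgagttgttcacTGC
*Lum*: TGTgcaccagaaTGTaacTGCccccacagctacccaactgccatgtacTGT
*Prelp*: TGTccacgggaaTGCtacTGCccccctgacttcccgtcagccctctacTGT
*Ogn*: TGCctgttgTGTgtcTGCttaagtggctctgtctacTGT

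The stretch of *Bgn* lies at chrX:70736318-70736359 and that of *Aspn* at chr13:49647234-49647275, each in exon 2 of the longest coding transcript. The class I genes had 3, 1 and 6 residues between successive cysteines. *Lum*, at chr10:97030987-97031037, and *Prelp*, at chr1:135811728-135811778 on the reverse strand, also carry the cluster in exon 2, with 3, 1 and 9 residues between the cysteines. *Ogn* carries it in exon 4, at chr13:49710935-49710973, and class III spacing is 2, 1 and 6 residues.

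In level the family was led by *Bgn*, *Dcn* and *Lum*, which together held 89.5% of the summed FPKM of the 10 genes in wild-type frontal bone, 89.3% in Twist1+/- frontal bone, 84.7% in wild-type parietal bone and 89.8% in the labelled library. *Aspn*, *Fmod*, *Omd* and *Ogn* formed a middle group between 46.2 and 271 FPKM. *Prelp* lay between 5.74 and 16.2 FPKM in every library, and *Kera* and *Epyc* between 0.0621 and 2.47 FPKM. No gene of the 10 was listed at 0, and 8 of them reached 1 FPKM in every library. Their summed expression was 3143 FPKM in wild-type frontal, 2754 in Twist1+/- frontal, 4210 in wild-type parietal and 3757 in the labelled library. As a share of the summed FPKM of all genes it was 0.634%, 0.530%, 0.600% and 0.577% in the same order. By share, wild-type parietal bone thus lay below wild-type frontal bone. With 1 library for each bone and genotype the spread of a level is unknown, so neighbours in this order cannot be called different.

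**Figure D1:**
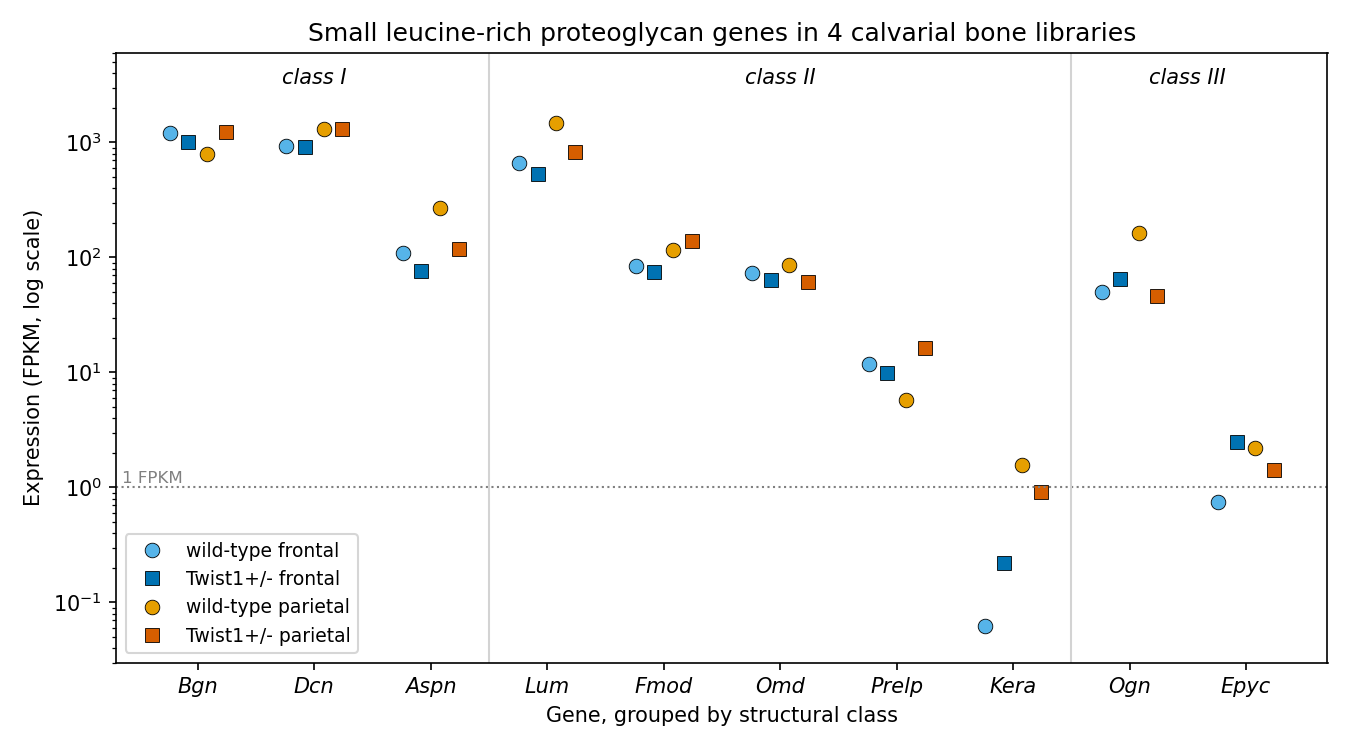
Expression of the 10 genes in FPKM (log scale) in the 4 libraries, with 1 point per library and the genes grouped by structural class. *Lum*, *Aspn* and *Ogn* have their highest point in wild-type parietal bone (1477, 271 and 162 FPKM), whereas *Bgn* and *Prelp* have their lowest point there (789 and 5.74 FPKM).

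The wild-type parietal library had a make-up of its own within the family. There *Lum* was the highest of the 10 genes, with *Dcn* next and *Bgn* after it, whereas *Bgn* led in both frontal libraries and *Dcn* in the library labelled Twist1+/- parietal. *Bgn* held 18.7% of the summed FPKM in wild-type parietal bone, against 38.7% in wild-type frontal, 36.9% in Twist1+/- frontal and 33.0% in the labelled library. *Lum* held 35.1% there, against 21.0%, 19.2% and 22.1% in the other libraries in the same order. *Dcn* held a nearly even share, from 29.7% to 34.7%.

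**Figure D2:**
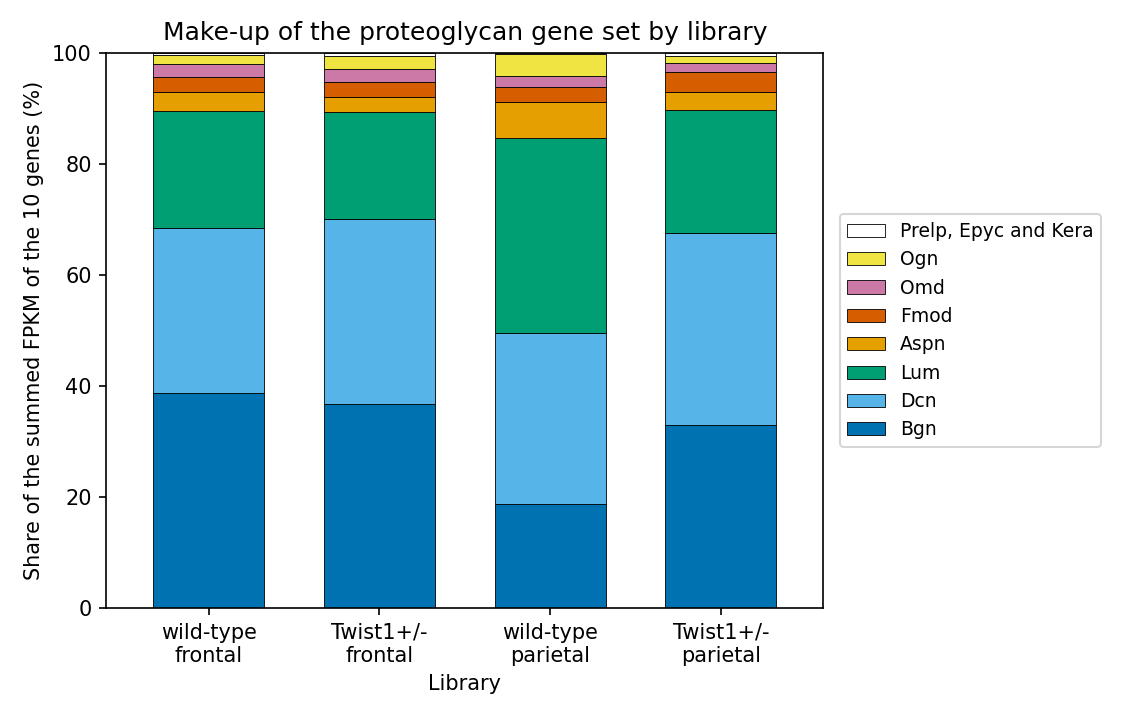
Share of the summed FPKM of the 10 genes (%) held by each gene, with 1 stacked bar per library. *Bgn* takes 18.7% in wild-type parietal bone and between 33.0% and 38.7% in the other libraries, while *Dcn* stays between 29.7% and 34.7%.

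A ratio of 2 genes within a library does not depend on how the libraries were scaled. The ratio of *Bgn* to *Lum* was 1.84 in wild-type frontal, 1.92 in Twist1+/- frontal, 0.534 in wild-type parietal and 1.49 in the labelled library. For *Bgn* to *Aspn* it was 11.1, 13.3, 2.91 and 10.4 in the same order. *Ogn* to *Omd*, neighbours on chromosome 13, gave 0.686, 1.02, 1.89 and 0.753. Of the ratios formed between genes at or above 1 FPKM, the widest was that of *Prelp* to *Ogn*, at 0.234, 0.153, 0.0354 and 0.351, a 9.91-fold range. In each of these 4 ratios the wild-type parietal library lay outside the range of the other libraries. All but *Ogn* to *Omd* set a GC-rich gene against a GC-poor gene, a property taken up below.

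For the comparison of genotypes in parietal bone, a bone of mesodermal origin, which asks how the bone with 1 *Twist1* allele differs in its matrix genes, a gene was called when its FPKM ratio exceeded 3-fold and the higher library reached 1 FPKM. Of the 10 genes 1 was called, *Ogn*, lower in the library labelled Twist1+/- parietal, beside 8.19% of 13914 genes tested that were called in either direction. At a 2-fold threshold 3 were called, *Ogn* and *Aspn* lower and *Prelp* higher, against 20.2% of all genes. The median log2 ratio of the 10 genes was -0.55, beside -0.06 over all genes, with 4 genes higher and 6 lower. *Ogn* was no longer called when the libraries were scaled to the same *Gapdh* value, which raised every log2 ratio of this comparison by 0.39, nor after subtraction of the median of genes with like GC content.

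**Figure D3:**
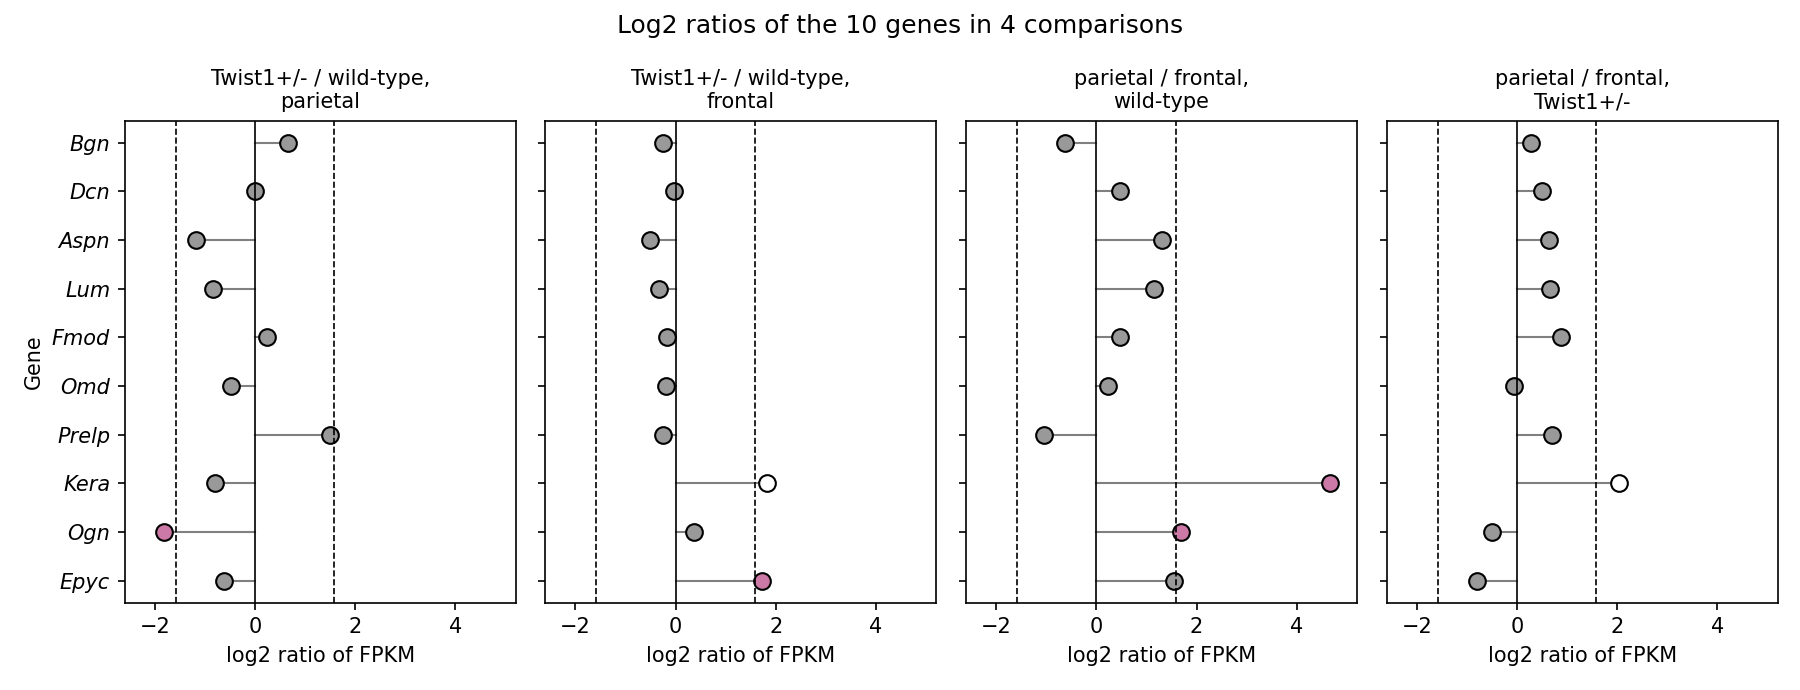
Log2 ratio of FPKM for the 10 genes in the 4 comparisons, 1 panel each, with dashed lines at 3-fold. Coloured points are genes past 3-fold with at least 1 FPKM in the higher library (*Ogn* at -1.81 between the parietal bones, *Epyc* at 1.73 between the frontal bones, *Kera* at 4.66 and *Ogn* at 1.69 between the wild-type bones), and open points are ratios with both libraries under 1 FPKM.

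*Ogn* encodes osteoglycin, or mimecan, a keratan sulfate proteoglycan of bone and fibrous tissue that is also found in blood as a secreted factor. It was at 50.5 FPKM in wild-type frontal, 65.1 in Twist1+/- frontal, 162 in wild-type parietal and 46.2 in the labelled library. Wild-type parietal bone was high and the other 3 libraries lay close together. Its level was 3.51-fold lower in the labelled library than in wild-type parietal bone, a log2 ratio of -1.81. Between the frontal bones the log2 ratio was 0.37, on the other side of 0.

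*Aspn* encodes asporin, a class I protein without a glycosaminoglycan chain that binds collagen and calcium and restrains TGF-β and BMP signalling. Its levels were 109 FPKM in wild-type frontal, 76.5 in Twist1+/- frontal, 271 in wild-type parietal and 119 in the labelled library. As for *Ogn*, the wild-type parietal library was the high one. It was 2.28-fold lower in the labelled library than in wild-type parietal bone (log2 ratio -1.19), under the 3-fold threshold, and the frontal log2 ratio was -0.51.

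*Lum* encodes lumican, a keratan sulfate proteoglycan that limits the lateral growth of collagen fibrils. It was at 661 FPKM in wild-type frontal, 528 in Twist1+/- frontal, 1477 in wild-type parietal and 830 in the labelled library. The wild-type parietal library was again the highest, and *Lum* had rank 53 among all genes in it. The log2 ratio was -0.83 between the parietal bones and -0.32 between the frontal bones, neither past 3-fold.

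*Omd*, osteomodulin or osteoadherin, is an acidic keratan sulfate proteoglycan of mineralised tissue that osteoblasts make. Its 4 values lay close together, at 73.5 FPKM in wild-type frontal, 64.1 in Twist1+/- frontal, 86.0 in wild-type parietal and 61.4 in the labelled library. The highest was 1.40 times the lowest, the narrowest range of the 10 genes. The parietal log2 ratio of -0.49 turned to 0.11 when the GC trend was subtracted.

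*Dcn* encodes decorin, a chondroitin or dermatan sulfate proteoglycan that coats collagen fibrils and binds TGF-β. It was at 934 FPKM in wild-type frontal, 917 in Twist1+/- frontal, 1298 in wild-type parietal and 1303 in the labelled library. The genotypes were close to each other in each bone, and both parietal libraries were higher than both frontal libraries. Its log2 ratio was 0.01 between the parietal bones and -0.03 between the frontal bones, and the frontal sign turned with scaling to the median ratio, where it was 0.02. Between the wild-type bones its log2 ratio of 0.47 went to 0.03 with scaling to *Gapdh*.

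*Bgn* encodes biglycan, the close relative of decorin with a pair of glycosaminoglycan chains and an abundant proteoglycan of bone matrix. It was at 1218 FPKM in wild-type frontal, 1015 in Twist1+/- frontal, 789 in wild-type parietal and 1239 in the labelled library. Wild-type parietal bone was the low library, and *Bgn* had rank 118 among all genes there against ranks of 20 to 43 in the other libraries. The log2 ratio was 0.65 between the parietal bones and -0.26 between the frontal bones.

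*Prelp* encodes a protein with a basic amino end that binds heparan sulfate and links basement membranes to collagen. It had 11.8 FPKM in wild-type frontal, 9.95 in Twist1+/- frontal, 5.74 in wild-type parietal and 16.2 in the labelled library. As with *Bgn*, the low library was wild-type parietal bone, and here the labelled library was the high one. The parietal ratio was 2.82-fold (log2 ratio 1.50), just under the threshold, and passed it at 1.89 with scaling to *Gapdh*. Between the frontal bones the log2 ratio was -0.24. *Prelp* shares 350 exon bases with *Gm15851* on the opposite strand, which was not analysed here.

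*Fmod* encodes fibromodulin, a keratan sulfate proteoglycan with sulfated tyrosines that guides collagen cross-linking. It was at 84.5 FPKM in wild-type frontal, 75.5 in Twist1+/- frontal, 117 in wild-type parietal and 139 in the labelled library. Like *Dcn* it was higher in both parietal libraries than in both frontal libraries. The log2 ratio was 0.25 between the parietal bones and -0.16 between the frontal bones, and that between the wild-type bones, 0.47, went to 0.025 with scaling to *Gapdh*.

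*Kera* and *Epyc*, known from the cornea and tendon and from growth plate cartilage respectively, were the lowest of the 10 genes. *Kera* was at 0.0621 FPKM in wild-type frontal, 0.221 in Twist1+/- frontal, 1.57 in wild-type parietal and 0.911 in the labelled library. *Epyc* was at 0.745, 2.47, 2.19 and 1.42 FPKM in the same order. FPKM does not tell how many reads stand behind such low values, so their ratios carry an unknown counting error. In addition, *Epyc* shares 315 exon bases and 241 of 2486 windows of 75 bases with *Gm10754* on the opposite strand, which was at most 0.0727 FPKM. The libraries were stranded, but whether the strand was used in quantification is not given in the sources used here.

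Between the frontal bones, where the genotype was compared in the bone derived from neural crest, 1 of 9 genes tested was called, beside 3.89% of 14341 genes. This was *Epyc*, 3.32-fold higher in Twist1+/- frontal bone, and no other gene joined it at 2-fold, where 7.18% of all genes were called. With a pseudocount of 1 FPKM its log2 ratio was 0.99 and it was not called, nor was it tested with a floor of 10 FPKM. *Kera* differed 3.55-fold but stayed under 1 FPKM in both libraries. The 8 genes above that level in every library had log2 ratios between -0.51 (*Aspn*) and 0.37 (*Ogn*). The median over the 10 genes was -0.18, beside -0.04 over all genes. In Twist1+/- frontal bone 7 of the 10 were lower and 3 higher, where 44.6% of 14259 genes were higher.

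The wild-type bones gave the most calls. In wild-type parietal against wild-type frontal bone 2 of 10 genes were called, both higher in parietal bone, beside 13.3% of 14214 genes. These were *Ogn*, 3.22-fold higher, and *Kera*, 25.3-fold higher from a frontal level of 0.0621 FPKM. With a pseudocount of 1 FPKM the log2 ratio of *Kera* fell from 4.66 to 1.28, under the threshold, and with a floor of 10 FPKM it was not tested. At 2-fold 6 of 10 passed, with *Lum* (2.23-fold), *Aspn* (2.48-fold) and *Epyc* (2.94-fold) also higher and *Prelp* 2.05-fold lower, beside 26.9% of all genes. The median log2 ratio of the 10 genes was 0.82, beside -0.01 over all genes. In parietal bone 8 of 10 were higher, *Bgn* (-0.63) and *Prelp* (-1.04) being the exceptions, beside 49.5% of 14120 genes. With scaling to *Gapdh*, which lowered every log2 ratio by 0.44, *Ogn* was at 1.24, under the threshold, and *Omd* turned from 0.23 to -0.22.

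Between the labelled library and Twist1+/- frontal bone 0 of 9 genes tested were called at 3-fold or at 2-fold, where 4.09% and 11.9% of 14305 genes were called. The ratios still leaned to parietal bone, with a median log2 ratio of 0.57 over the 10 genes beside -0.03 over all genes. Of the 10 genes 7 were higher, beside 47.6% of 14236 genes. *Fmod* (0.88), *Prelp* (0.71), *Lum* (0.65), *Aspn* (0.64) and *Dcn* (0.51) lay above 0, as did *Bgn* (0.29) and *Kera* (2.04, both values under 1 FPKM), whereas *Ogn* (-0.49), *Epyc* (-0.80) and *Omd* (-0.06) lay below. The genotype comparison in parietal bone and the comparison of wild-type bones share the wild-type parietal library, in which 5 of the 10 genes had their highest value and 2 their lowest.

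The 10 genes also divide by base composition. The longest coding transcripts of *Bgn*, *Fmod* and *Prelp* have 52.3% to 53.8% GC, and those of the other 7 genes have 34.4% to 42.4%. Between the parietal bones the 3 GC-rich genes had log2 ratios from 0.25 to 1.50 and the 7 GC-poor genes from -1.81 to 0.01. Over the 10 genes Spearman's rho of log2 ratio and GC content was 0.794 between the parietal bones, -0.0303 between the frontal bones, -0.576 between the wild-type bones and 0.479 between the labelled library and Twist1+/- frontal bone, a description over genes of the same libraries, which are not independent replicates.

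All genes with a known GC content showed a trend of the same sign between the parietal bones, with a median log2 ratio of -0.59 in the GC-poorest of 20 groups. With the median of its GC group subtracted, *Ogn* was at -1.22, *Aspn* at -0.59, *Lum* at -0.23, *Omd* at 0.11, *Fmod* at 0.05, *Bgn* and *Dcn* at 0.59 and *Prelp* at 1.29 on the log2 scale. None of the 10 was then called, and their median moved from -0.55 to 0.01. *Ogn* thus remained the lowest and *Prelp* the highest of the 10 under that subtraction. The part of GC content in these ratios was not tested.

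**Figure D4:**
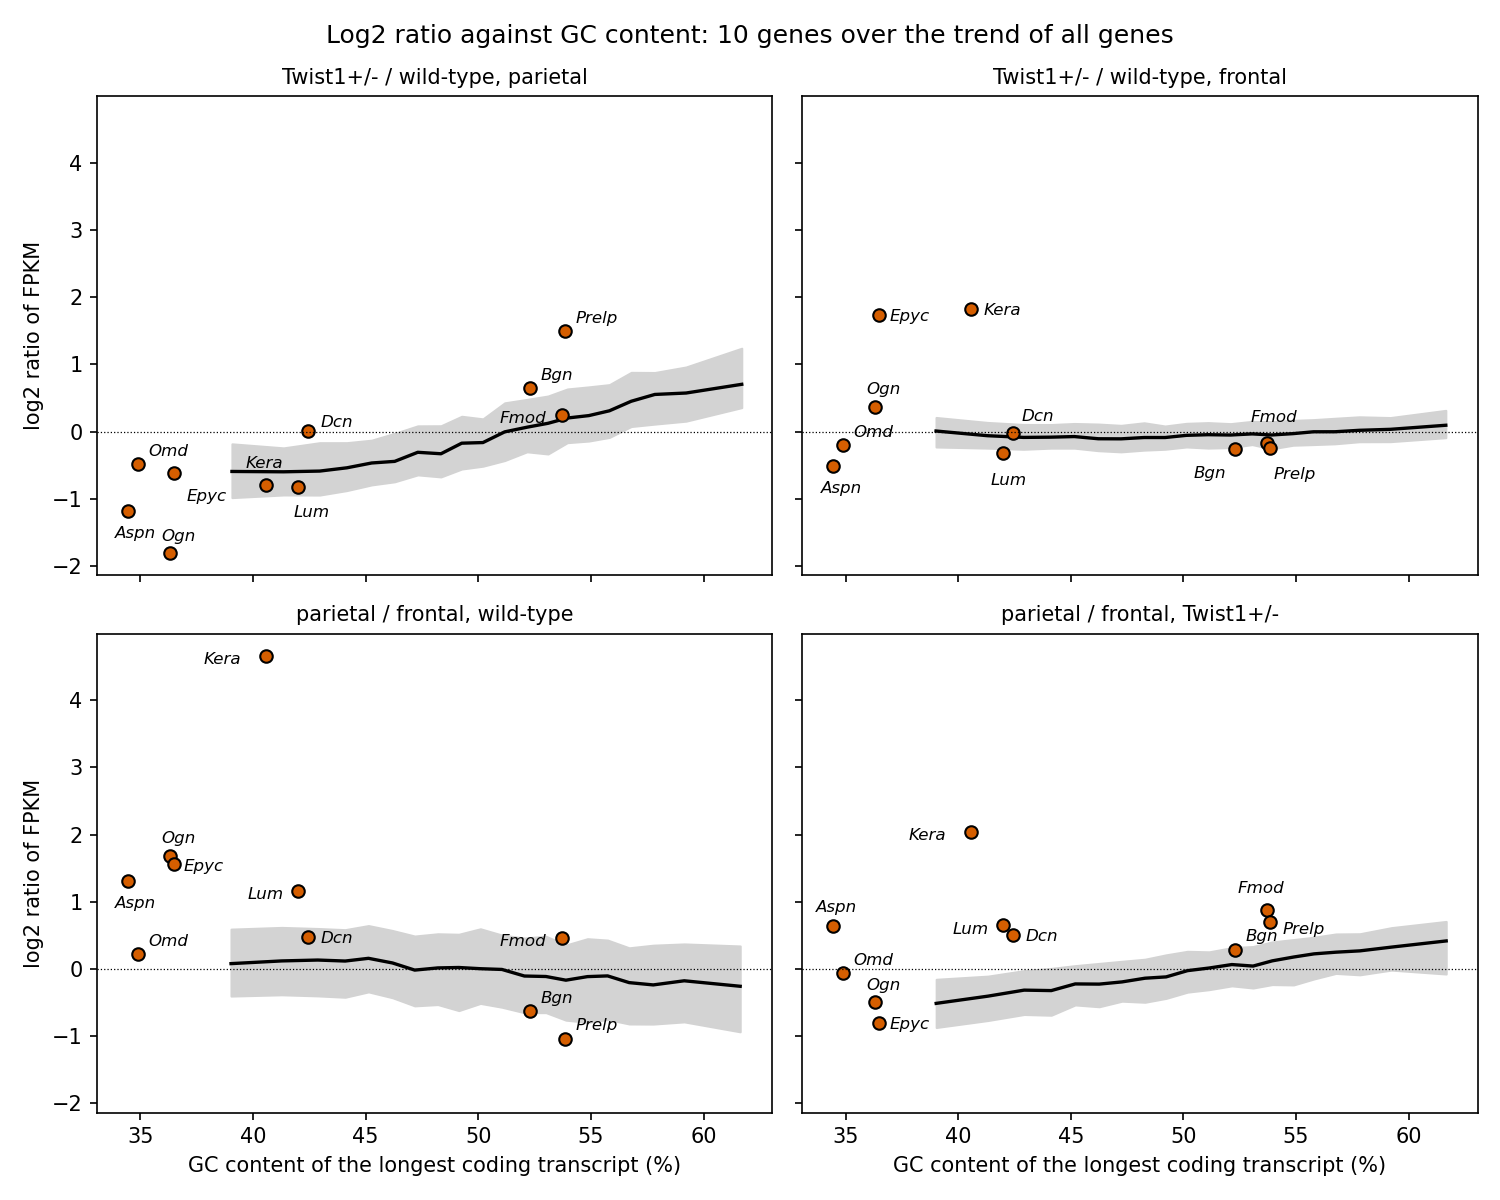
Log2 ratio of FPKM against GC content of the longest coding transcript (%) in the 4 comparisons, with points for the 10 genes, a black line for the median of all genes in 20 GC groups and grey for the range between their quartiles. Between the parietal bones the GC-rich genes *Bgn*, *Fmod* and *Prelp* lie from 0.25 to 1.50 and the 7 GC-poor genes from -1.81 to 0.01.

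In the genome 9 of the 10 genes lie in 3 clusters (mm9, GENCODE release M1). *Dcn* (96942245 to 96980777), *Lum* (97028135 to 97035337), *Kera* (97069817 to 97076322) and *Epyc* (97106702 to 97145088) follow each other on the forward strand of chromosome 10 within 203 kb. *Aspn* (49639812 to 49662926), *Omd* (49678135 to 49687978) and *Ogn* (49703440 to 49719869) follow *Ecm2* on chromosome 13 within 120 kb, inside the span of *Cenpp*, a gene on the opposite strand with which they share 0 exon bases. *Prelp* (135806881 to 135817991) and *Fmod* (135933831 to 135944854) lie on chromosome 1 within 151 kb, in opposite directions. *Bgn* stands alone on chromosome X, from 70728941 to 70741272.

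Between the parietal bones the chromosome 13 genes had log2 ratios of -0.20 (*Ecm2*), -1.19 (*Aspn*), -0.49 (*Omd*) and -1.81 (*Ogn*), so that all 4 were below 0 but spread widely. On chromosome 10 *Dcn* was at 0.01, with *Lum*, *Kera* and *Epyc* between -0.83 and -0.62. *Cenpp*, which surrounds the chromosome 13 genes, was at 6.42, 4.42, 6.51 and 4.18 FPKM in wild-type frontal, Twist1+/- frontal, wild-type parietal bone and the labelled library, a log2 ratio of -0.64 between the parietal bones.

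**Figure D5:**
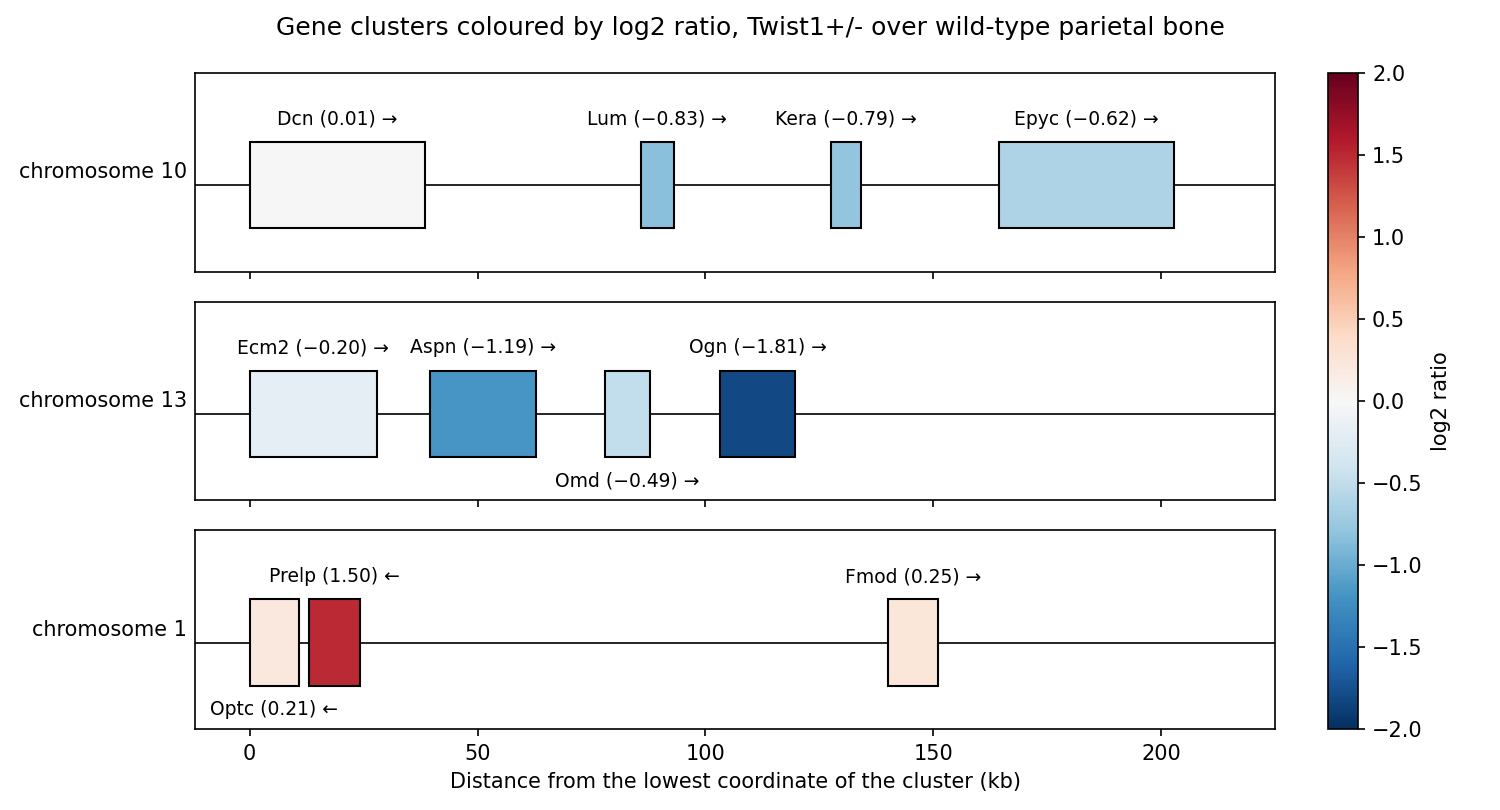
Position of the genes of the 3 clusters (kb from the lowest coordinate of each cluster), coloured by log2 ratio of FPKM in the library labelled Twist1+/- parietal over wild-type parietal bone, with arrows for the direction of transcription. The chromosome 13 genes range from -0.20 (*Ecm2*) to -1.81 (*Ogn*), and *Prelp* on chromosome 1 is at 1.50.

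Twist proteins bind E-boxes, the motif CANNTG, so the 250 bases before the annotated start are shown for *Ogn* and *Lum*, highest in wild-type parietal bone, and for *Bgn* and *Prelp*, lowest there. Capitals mark CANNTG, which reads the same on both strands; overlapping matches were allowed.
*Ogn*: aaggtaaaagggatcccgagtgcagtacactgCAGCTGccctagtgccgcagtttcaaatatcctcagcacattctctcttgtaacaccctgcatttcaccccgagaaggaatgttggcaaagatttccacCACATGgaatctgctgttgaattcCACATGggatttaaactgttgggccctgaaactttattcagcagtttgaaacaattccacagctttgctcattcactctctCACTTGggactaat
*Lum*: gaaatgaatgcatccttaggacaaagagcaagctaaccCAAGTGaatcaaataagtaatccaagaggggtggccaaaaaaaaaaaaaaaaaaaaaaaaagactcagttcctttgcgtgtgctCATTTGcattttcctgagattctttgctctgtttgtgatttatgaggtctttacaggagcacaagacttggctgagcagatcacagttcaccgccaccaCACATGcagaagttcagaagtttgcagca
*Bgn*: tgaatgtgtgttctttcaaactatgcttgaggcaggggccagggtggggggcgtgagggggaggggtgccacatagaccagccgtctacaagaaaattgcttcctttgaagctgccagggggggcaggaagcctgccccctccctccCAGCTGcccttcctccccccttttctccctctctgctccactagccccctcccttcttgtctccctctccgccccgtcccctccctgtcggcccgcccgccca
*Prelp*: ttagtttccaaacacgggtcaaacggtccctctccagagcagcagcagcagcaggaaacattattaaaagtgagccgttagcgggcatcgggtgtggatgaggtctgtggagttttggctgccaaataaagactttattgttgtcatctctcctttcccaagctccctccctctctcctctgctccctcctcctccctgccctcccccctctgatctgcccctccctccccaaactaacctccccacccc

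These windows lie in mm9 at chr13:49703190-49703439, chr10:97027885-97028134 and chrX:70728691-70728940 on the forward strand and at chr1:135817992-135818241 on the reverse strand. *Ogn* holds 4 matches, and at least as many were found in 3.04% of 19336 promoter windows of that length. *Lum* and *Dcn* hold 3 each (at least as many in 10.1% of windows), *Bgn*, *Fmod*, *Omd* and *Aspn* 1 each (62.7%), and *Prelp*, *Kera* and *Epyc* none. *Omd*, *Aspn* and *Kera*, whose windows are not shown, were also highest in wild-type parietal bone, with no more matches than *Bgn*. *Dcn*, with as many matches as *Lum*, had a log2 ratio of 0.01 between the parietal bones against -0.83. A match is a run of letters and not a binding site.

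The other 9 genes of the family were low, at 0 to 39.3 FPKM. Between the parietal bones 0 of 6 tested were called, beside 8.19% of all genes, with a median log2 ratio of 0.21 over the 9 genes. *Chad* (chondroadherin, of cartilage and bone) was at 7.11 FPKM in wild-type frontal, 9.22 in Twist1+/- frontal, 23.4 in wild-type parietal and 17.5 in the labelled library, and *Podnl1* (a podocan-like protein) at 7.31, 8.36, 24.3 and 15.8 FPKM. Both were called higher in wild-type parietal than in wild-type frontal bone, 2 of 6 tested, beside 13.3% of all genes. They were the only calls of this list in the 4 comparisons. Between the frontal bones and between the labelled library and Twist1+/- frontal bone 0 of 6 were called, beside 3.89% and 4.09% of all genes. *Tsku* (tsukushi, an inhibitor of BMP signalling) was at 25.3, 29.0, 25.4 and 39.3 FPKM and *Ecm2* at 9.01, 6.71, 13.8 and 12.0 FPKM.

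Enzymes finish these proteins after translation. Of 22 genes for the linker, chains and sulfation of chondroitin and dermatan sulfate, which decorate biglycan and decorin, 1 was called between the parietal bones, the sulfotransferase *Chst12*, with 9.26 FPKM in the wild-type and 31.6 FPKM in the labelled library, beside 8.19% of all genes tested. Their median log2 ratio there was 0.25, with 14 higher and 8 lower. Between the wild-type bones 1 of the 22 was called, the sulfotransferase *Chst3*, lower in parietal bone (1.56 against 8.04 FPKM), beside 13.3% of all genes. None was called between the frontal bones or between the labelled library and Twist1+/- frontal bone, beside 3.89% and 4.09% of all genes. None of 7 keratan sulfate enzymes and neither of 2 tyrosine sulfotransferases was called in any of the 4 comparisons. The share of all genes called ran from 3.89% to 13.3% over these comparisons.

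Biglycan and osteoglycin are cut to their mature form by proteinases of the BMP1 family. Of 5 such proteinases and enhancers 0 were called in any comparison, although all 5 were higher in the library labelled Twist1+/- parietal than in wild-type parietal bone (median log2 ratio 0.93) and all 5 lower in wild-type parietal than in wild-type frontal bone (median -0.70). Of the 5, 3 reached 1 FPKM, and the share of all genes called ran from 3.89% to 13.3% over the comparisons. *Bmp1* itself, named after its values were seen, was at 113 FPKM in wild-type frontal, 107 in Twist1+/- frontal, 73.0 in wild-type parietal and 139 in the labelled library. Wild-type parietal bone was the low library and the labelled library the high one, as for *Bgn* and *Prelp*. Of 12 extracellular proteoglycans without the leucine-rich fold, 11 were tested between the parietal bones, and 1 was called higher and 1 lower, beside 8.19% of all genes. These were *Bcan* of brain matrix (2.96 and 9.0 FPKM in the wild-type and the labelled library) and *Vcan* of loose connective tissue (39.0 and 12.7 FPKM). Between the wild-type bones 2 of the 12 were called lower in parietal bone, beside 13.3% of all genes. Between the frontal bones 1 was called lower in Twist1+/- bone (3.89% of all genes), and 1 in the labelled library against Twist1+/- frontal bone (4.09%).

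Markers of fibrous tissue, tendon and cartilage also differed between the libraries, and their part in the ratios was not tested. Of 12 fibroblast and periosteum markers 2 were called higher and 2 lower between the parietal bones, beside 8.19% of all genes, with 6 higher and 6 lower at a median log2 ratio of -0.02. Their summed level was 657 FPKM in wild-type frontal, 421 in Twist1+/- frontal, 1446 in wild-type parietal and 718 in the labelled library. The highest of them was *Postn* (periostin, of periosteum), at 396, 199, 1044 and 283 FPKM, highest in wild-type parietal and lowest in Twist1+/- frontal bone, as were *Lum* and *Aspn*. Without *Postn* the summed level of the other 11 was 402 FPKM for wild-type parietal bone against 436 FPKM for the labelled library, so the direction between the parietal bones turned. The 6 tendon markers summed to 38.7, 31.0, 185 and 79.6 FPKM, with *Tnmd* (tenomodulin) at 21.3, 10.3, 142 and 29.2 FPKM and none at 0. Without *Tnmd* the other 5 had 43.1 FPKM (wild-type parietal) and 50.4 FPKM (the labelled library) in sum, again in the other direction. Of these, named after their values were seen, *Scx* was at 4.94, 5.07, 5.65 and 11.8 FPKM and *Comp* at 2.74, 4.56, 5.94 and 12.4 FPKM. Of 12 cartilage markers 7 were called lower and 1 higher between the parietal bones, and 7 higher and 1 lower in wild-type parietal over wild-type frontal bone, beside 8.19% and 13.3% of all genes. Their sum, 351, 251, 193 and 327 FPKM, was lowest in wild-type parietal bone, as was the highest of them, *Col11a2* (337, 236, 79.9 and 305 FPKM). Without *Col11a2* the other 11 summed to 14.6, 14.9, 113 and 22.0 FPKM, so wild-type parietal bone was then the highest library. Among them *Mia* was at 2.28, 4.77, 49.8 and 4.73 FPKM. The defining cartilage gene *Col2a1* was between 1.49 and 8.61 FPKM, and *Matn1* was listed at 0 in the labelled library.

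By pattern over the 4 libraries, the genes nearest to each of the 8 proteoglycan genes at or above 1 FPKM throughout were sought among 7873 genes, by the root mean square difference of centred log2(FPKM + 1). *Ogn* was nearest to *Shisa3*, *Fgl2* and *Gfra1* (0.110 to 0.118), the loosest of the 8 sets. *Aspn* was nearest to *Ptprv*, *Prdx4* and *Tmem37*, and *Lum* to *Cnpy2*, *Rpl30* and *Ppib*. *Bgn* was nearest to *Dpp9*, *Ptprs* and *Dalrd3*, *Prelp* to *Pltp*, *Rcor2* and *Tmem184b*, and *Fmod* to *Coa3*, *Qtrt1* and *Il17rc*. *Dcn* was nearest to *Ppie*, *Naa10* and *Clcn7*, and *Omd* to *Ublcp1*, *Nif3l1* and *Ebna1bp2*. None of the 24 is a proteoglycan of the 10, 15 of the 24 were found again with a pseudocount of 0.1 FPKM, and with 4 libraries many genes share a pattern.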

How the data were processed

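Per the labels and the study's methods, total RNA of frontal and parietal bones was poly(A)-selected, made into stranded libraries and read as single ends of 75 bases. The authors aligned the reads to mm9 with STAR (2.4.2a) and deposited FPKM values from Cuffdiff (Cufflinks 2.2.1), 1 per gene and library. The scaling option of Cuffdiff and any pooling of replicates are not given in the sources used here. FPKM is not a count and does not show a library's depth, so no interval or floor is printed.

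Libraries were grouped by their labels. Ratios of FPKM were formed for 4 comparisons with Python (3.11.15), numpy (2.4.6), pandas (2.3.3) and scipy (1.17.1). A gene was tested when at least 1 of the 2 libraries reached 1 FPKM and called past 3-fold. With 1 library per group there was no test across replicates. The 10 genes, the other lists and the rules for naming genes were chosen with earlier results of these data known. All 10 genes are named, of other lists at most the 2 highest called genes, family members, and genes whose choice after seeing values is stated. The cartilage genes *Col2a1* and *Matn1* are named outside this rule. Positions, GC content and sequences came from the mm9 genome with GENCODE release M1 (the authors took iGenomes), and GC content was found for 19341 of 23946 genes (80.8%). The calling procedure was run on simulated data with planted changes well past 3-fold and small noise that did not depend on level. Such a run checks the code and does not measure the error of calls, least of all at low FPKM. Alternatives were pseudocounts (1 and 0.1 FPKM), another floor (none and 10 FPKM), a 2-fold threshold, scaling to the same median ratio or *Gapdh* value, and subtraction of the median of 20 GC groups.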

Additional observations from a re-analysis of the deposited data

Results flagged for a closer look

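For 7 of the 10 genes the ratio of Twist1+/- over wild-type bone lay on opposite sides of 0 in parietal and frontal bone. The share was 46.0% over 14542 genes above 0 FPKM in every library and at or above 1 FPKM in at least 1. The parietal ratio rests on the library labelled Twist1+/- parietal. With 1 library per group the difference between the bones was not tested. On the log2 scale, parietal minus frontal, it was 0.91 for *Bgn*, 0.032 for *Dcn*, 0.41 for *Fmod*, -2.18 for *Ogn*, 1.74 for *Prelp*, -2.62 for *Kera* and -2.35 for *Epyc*. The value of *Dcn* came from ratios of 0.01 and -0.03, close to 0 in both bones, and those of *Kera* and *Epyc* from levels of at most 2.47 FPKM. *Ogn* and *Prelp* were the genes at or above 5 FPKM in every library whose difference exceeded 3-fold. In an alternative chosen after seeing the data, with the median of genes of like GC content subtracted from each ratio, the difference was -1.58 for *Ogn* and 1.49 for *Prelp*, and neither then exceeded 3-fold. Over the 10 genes the median size of the difference was 0.79, beside 0.54 over 14542 genes, and 4 of 10 exceeded 3-fold, beside 10.2% of those genes.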

How the results depend on the processing

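The 4 libraries have no replicates, so no replicate could be left out. No paired analysis was possible because the groups share fewer than 2 replicate numbers and no result comes from a test. Between the parietal bones 1 proteoglycan gene of 10 was called, 3 at a 2-fold threshold, and 0 with the GC trend subtracted, when the median log2 ratio of the 10 genes went from -0.55 to 0.0079. With scaling to *Gapdh* the count stayed at 1 but the called gene was *Prelp* (1.89) in place of *Ogn* (-1.42). Between the frontal bones the count of 1 went to 0 with a pseudocount of 1 FPKM or a floor of 10 FPKM and to 2 with no floor, since *Epyc* and *Kera* are low. Between the wild-type bones the count of 2 went to 1 with a pseudocount of 1 FPKM, a floor of 10 FPKM or scaling to *Gapdh*, and to 6 at 2-fold. Between the labelled library and Twist1+/- frontal bone the count of 0 went to 1 with no floor. Scaling to the same median ratio moved no log2 ratio by more than 0.07, and scaling to *Gapdh* moved them by 0.39 between the parietal, -0.10 between the frontal, -0.44 between the wild-type bones and 0.05 between the labelled library and Twist1+/- frontal bone.

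Of the 40 log2 ratios of single genes, 35 kept their sign in all 5 settings. The other 5 were *Omd* in 3 comparisons (with the GC trend subtracted, 0.11 between the parietal bones and 0.45 for the labelled library over Twist1+/- frontal bone, -0.22 between the wild-type bones with *Gapdh*), *Dcn* between the frontal bones (0.02 with the median ratio, 0.06 with the GC trend) and *Ogn* in the labelled library over Twist1+/- frontal bone (0.02 with the GC trend), and the cause was not tested. Counts of all genes called between the parietal bones ran from 323 (floor of 10 FPKM) to 3675 (no floor), with 458 at a pseudocount of 1 FPKM, beside 1139 as reported. They ran from 159 to 3032 between the frontal, 625 to 4525 between the wild-type and 125 to 3093 between the labelled library and Twist1+/- frontal bone. In a choice made after seeing the data, leaving out the highest gene turned the log2 ratio of summed FPKM between the parietal bones from -1.01 to 0.12 for fibroblast and periosteum markers (*Postn*) and from -1.22 to 0.23 for tendon markers (*Tnmd*). The sums of meningeal markers (without *Ptgds*) and of cartilage markers (without *Col11a2*) also turned direction between the parietal bones. With the GC trend subtracted, also chosen then, the difference of the genotype log2 ratios, parietal minus frontal, turned from -0.51 to 0.030 for *Lum* and from -0.29 to 0.31 for *Omd*, and the cause was not tested.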
